A study of Mus musculus with 130 samples.

Results

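Dividing cells of mouse embryos at E13.5 were compared with dividing cells of embryos at E10.5. The cells had been sorted from FUCCI embryos of the FVB/NJ strain as the S-G2-M fraction, and total RNA was depleted of ribosomal RNA and sequenced. FUCCI is a pair of fluorescent reporters that are degraded at opposite points of the cell cycle, so that cells between the start of DNA synthesis and the end of mitosis can be collected by colour. The E13.5 group had 2 libraries, from preparations 5 and 8, and the E10.5 group had 2 libraries, from preparations WT1 and WT2. These 4 libraries were chosen by gate and day alone, and they are 4 of the 25 libraries of the study, which also covers G0, G1 and G1-S cells, unsorted cells and 1 E11.5 preparation (WT3). The reporter is carried by every group, no embryo was treated, and no gene was deleted. Whether 1 embryo or a pool went into a preparation is not given in the sources used here, so the p-values measure the spread between 2 preparations a day. The E13.5 preparations carry other title prefixes than the WT-titled E10.5 and E11.5 preparations, so day cannot be told apart from preparation set. Each value mixes all tissues of the embryo, so more or fewer cells of a type and more or less RNA per cell cannot be told apart.

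Cells that enter the cycle load the MCM helicase on replication origins and copy their DNA under the control of the E2F family, and genes of mitosis are then switched on through FOXM1, B-MYB and the DREAM complex. Many embryonic cells keep dividing while they acquire a tissue identity, and a set of heterochronic genes around the RNA-binding proteins LIN28A and LIN28B falls as let-7 microRNAs mature. Between E10.5 and E13.5 the mouse embryo ends somite formation, lays down cartilage models of its bones, starts muscle fibre formation and moves blood formation to the fetal liver.

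Sequences of 2 kinds bear on the genes described here, and they are shown because the members of these gene sets were compared between days. The mature let-7 microRNAs and miR-98 share bases 2 to 8, the seed, which is in capitals (RefSeq, GRCm38.p6, the strand of the microRNA):
let-7a-5p: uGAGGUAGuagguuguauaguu
let-7b-5p: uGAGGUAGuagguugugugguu
let-7e-5p: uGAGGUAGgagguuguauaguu
let-7g-5p: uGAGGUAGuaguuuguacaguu
miR-98-5p: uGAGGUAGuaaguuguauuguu
The complement of that seed, CTACCTC, occurred 4 times in the 3′ UTR of Lin28b, Trim71, Igf2bp1 and Hmga2, and 2 times in that of Lin28a and Arid3a. A site of each of the first 5 genes is given with the seed match in capitals (GRCm38, minus strand in each case):
Lin28b, chr10:45381022-45381044: acccgggcgggaagtCTACCTCa
Trim71, chr9:114512472-114512494: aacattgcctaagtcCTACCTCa
Igf2bp1, chr11:95961778-95961800: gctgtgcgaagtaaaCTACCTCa
Hmga2, chr10:120364224-120364246: gccgacattcaatttCTACCTCa
Lin28a, chr4:134005189-134005211: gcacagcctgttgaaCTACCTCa
Plagl2, Hmga1, Arid3b, Igf2bp2 and Igf2bp3 held 1 match each, and none was found in the 3′ UTR of Mycn.

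In promoters, taken as 250 bases before to 50 bases after the RefSeq start, the letters TTTGGCGC or TTTCCCGC on either strand were searched as an E2F element and TTTGAA on either strand as a cell cycle homology region (CHR), the element that DREAM reads in mitotic genes. Examples are printed with the match in capitals (GRCm38.p6, the strand of the gene), first 4 origin-licensing genes and then 4 mitotic genes:
Mcm6, chr1:128359735-128359762, minus: attggacgggTTTGGCGCgaagtagctc
Mcm3, chr1:20820276-20820303, minus: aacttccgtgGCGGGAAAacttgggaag
Mcm5, chr8:75109350-75109377, plus: aagaactttcGCGCCAAAacgtccagcc
Cdc6, chr11:98908003-98908030, plus: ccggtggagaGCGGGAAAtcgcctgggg
Mki67, chr7:135716462-135716487, minus: gccgttttggTTTGAAtcgggcgggc
Ccnb2, chr9:70421535-70421560, minus: cggcgcggtaTTTGAAtcgcggaccg
Cenpa, chr5:30666892-30666917, plus: cgggtgatttTTTGAActgctggcga
Kif23, chr9:61946782-61946807, minus: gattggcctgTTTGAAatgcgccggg
The E2F letters were in 8 of 18 licensing promoters (44.4%) and in 1.8% of all 27025 promoters, and the CHR letters in 23 of 32 mitotic promoters (71.9%) and in 20.2% of all promoters. These matches describe the letters in the window and no binding.

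The E13.5 libraries held 18.92 and 14.69 M counts (5 and 8; M stands for 1e6), the E10.5 libraries 35.1 and 47.3 M (WT1 and WT2), and the E11.5 library of the same gate 58.49 M. Levels are counts per 1e6 counts (CPM) after scaling by trimmed mean of M values over these libraries, and a count of 0 allows up to 3 counts, or between 0.0638 and 0.212 CPM, for counting error only. Mitochondrially encoded genes took 2.078% and 2.299% of the counts at E13.5 and 0.441% and 0.545% at E10.5. Preparation 8 stood apart in genes of the sex chromosomes, with Xist at 9.64 and 2144.7 CPM in the E13.5 libraries 5 and 8, against 1.33 and 3.68 CPM at E10.5. Eif2s3y of chromosome Y was at 55.0 and 0.778 CPM at E13.5 and at 70.4 and 66.6 CPM at E10.5. Xist, Eif2s3y, Ddx3y and Uty missed the test between days.

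The gate held its own markers on both days. The 28 mitotic genes clear of overlap summed to between 10545.8 and 11002.4 CPM in S-G2-M at E13.5 and to between 8762.8 and 8873.3 CPM at E10.5. In G0 cells the same genes summed to between 317.2 and 317.9 CPM at E13.5 and to between 236.3 and 360.7 CPM at E10.5.

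Genes were counted apart by whether an exon base lies under a gene on the other strand, because counts from the other strand differed between the sets of libraries and the labels do not give the strand handling. Among 613 genes whose exon length lies to at least 90% under exons of the other strand, 104 had 10 or more counts at E13.5 and 21 at E10.5, and they took 5639.3 and 51.3 CPM. The reverse held, less strongly in CPM, for 4586 genes that lie within genes of the other strand without touching their exons. Of these, 541 had 10 or more counts at E13.5 and 2108 at E10.5, and they took 10863.9 and 16068.0 CPM. The numbers of genes with 10 or more counts also depend on depth, and the E10.5 libraries were the deeper ones. In the E11.5 library 20 genes of the first set and 2121 of the second had 10 or more counts. Genes with no exon base under a gene on the other strand are called clear here, and the others overlapped. All statements on clear genes come from the same fit as those on overlapped genes.

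Clear genes, as defined here, moved about equally often up and down between the days. The scaling itself centres the bulk of genes near no change. Of clear genes past the test, 49.0% were higher, against 43.2% in a fit of all 25 libraries and 52.0% with overlapped genes left out. With overlap counted only between exons, the larger clear class had 3393 genes higher and 4665 lower. Of 13496 clear genes tested with edgeR's quasi-likelihood test at an adjusted p of 0.05, 3146 were higher (23.3%) and 3269 lower (24.2%) at E13.5, with a median log2 change of -0.03 and quartiles of -0.45 and 0.47. Large changes leaned up: with a minimum change of 2-fold in the test, 923 clear genes were higher and 511 lower. Of 8196 overlapped genes, 2297 were higher (28.0%) and 2994 lower (36.5%), with quartiles of -1.23 and 0.52, and with the 2-fold minimum 693 were higher and 1835 lower. These percentages are the background for every count of list members below. The libraries of the 2 days did not overlap for 9822 of the clear and 6856 of the overlapped genes.

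**Figure D1:**
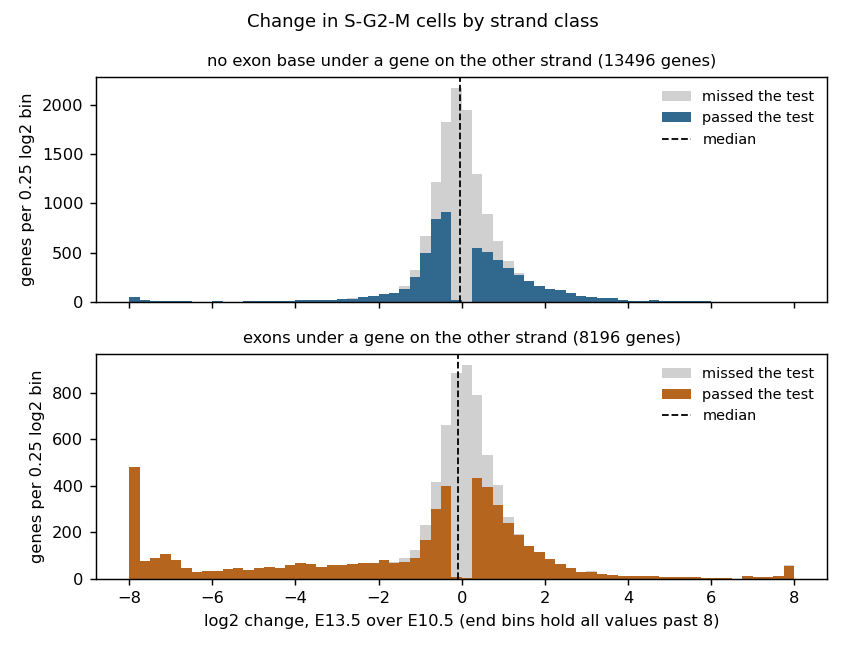
Histograms of the log2 change of E13.5 over E10.5 in S-G2-M cells for 13496 clear genes (upper) and 8196 overlapped genes (lower). Coloured bars are genes past the test, and the overlapped genes have a heap at the lower end that the clear genes do not have at that height.

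Among the timing genes, Lin28b fell furthest of the clear members. Lin28b, an RNA-binding protein that blocks let-7 maturation (chr10:45376620-45486395, GRCm38, minus strand), had 16.6 and 15.3 CPM at E13.5, against 161.8 and 203.3 CPM at E10.5. The days did not overlap, and its log2 change was -3.51 ± 0.13 (SE, n = 2 a day, adjusted p = 3.05e-20). The E11.5 library had 243.0 CPM, above both E10.5 libraries. Arid3a, a DNA-binding factor, had 29.2 and 28.6 CPM at E13.5 against 60.6 and 83.2 CPM at E10.5, and Mycn, a growth-promoting transcription factor, had 58.5 and 53.9 CPM against 82.1 and 102.8 CPM. Of the 5 clear members 3 fell, with a median log2 change of -0.72 where that of all clear genes was -0.03.

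Of the 7 overlapped timing genes 6 fell, and their values carry the uncertainty of the strand. Lin28a had 0.838 and 0.99 CPM at E13.5, against 36.6 and 74.7 CPM at E10.5 (log2 change -5.94 ± 0.78, adjusted p = 0.0242), with 9.18% of its exon length under a gene on the other strand. Trim71, a ubiquitin ligase and let-7 target, had 13.7 and 13.6 CPM at E13.5, against 133.5 and 195.4 CPM at E10.5, with 1.45% of its exon length overlapped. Igf2bp1, which stabilises messenger RNAs, had 352.1 and 383.0 CPM at E13.5, against 784.8 and 830.9 CPM at E10.5 (log2 change -1.14 ± 0.11). Hmga2, a chromatin protein of growing tissues, was at 280.8 and 263.9 CPM at E13.5 and at 352.1 and 398.9 CPM at E10.5. The days did not overlap for any of these 4 genes, as for 6856 of all 8196 overlapped genes tested. The size of the fall ran from -5.94 for Lin28a to -0.46 for Hmga2. Igf2bp2 and Igf2bp3, with log2 changes of -0.17 and -0.15, missed the test.

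Clear genes were also counted by the number of let-7 seed matches. Among 111 clear genes with at least 2 matches in the 3′ UTR, 32 were higher (28.8%) and 36 lower (32.4%), and among all 9556 clear genes with a 3′ UTR 29.1% were higher and 24.9% lower. Of the 12 genes with 3 or more matches 3 were higher and 5 lower (41.7%). The genes with 2 or more matches had longer 3′ UTRs, with a median of 3645 bases, against 1178 bases for all, and no test was made of this difference. Mature let-7 was not measured here. Only 2 of 11 let-7 precursor genes had enough counts to be tested, and both were overlapped.

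**Figure D2:**
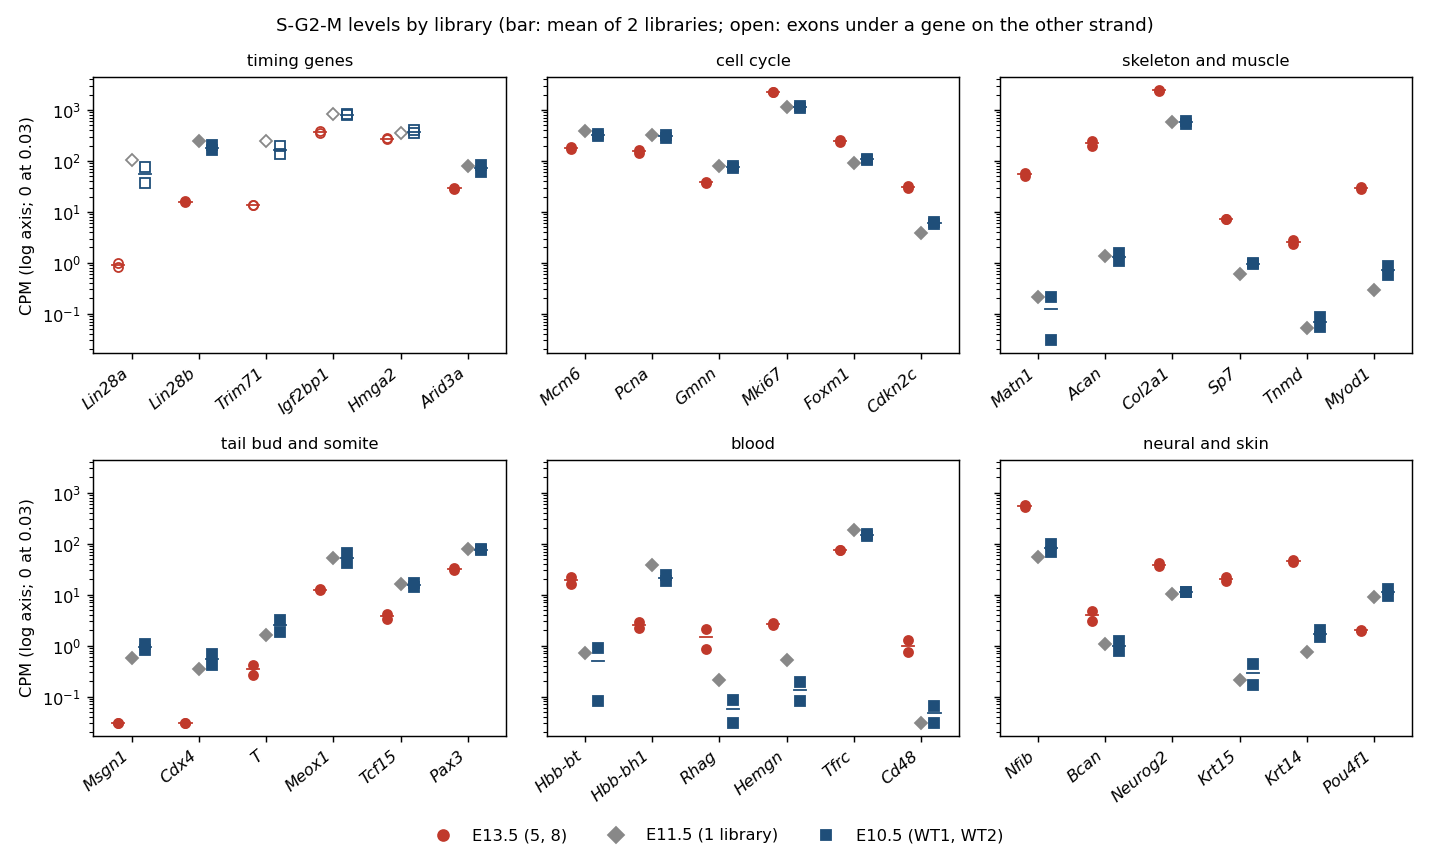
S-G2-M levels in CPM on a log axis for 36 genes in 6 groups, with E13.5 libraries (circles) left, the E11.5 library (diamonds) in the middle and E10.5 libraries (squares) right of each gene. Bars are means of 2 libraries and open symbols mark overlapped genes. For every gene drawn, both E13.5 libraries lie on the same side of both E10.5 libraries. The genes drawn were chosen with their values known. The same held for 9822 of 13496 clear and 6856 of 8196 overlapped genes tested.

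Within the cell cycle, genes that start DNA replication were lower at E13.5 and several genes of mitosis were higher. Of 16 clear licensing genes 13 fell, with a median log2 change of -0.51. Mcm6, a helicase subunit, had 173.1 and 188.1 CPM at E13.5, against 302.2 and 332.5 CPM at E10.5 (log2 change -0.81 ± 0.11, adjusted p = 1.15e-07). Mcm3, another subunit, was at 157.2 and 168.3 CPM at E13.5 and at 254.4 and 288.5 CPM at E10.5. Gmnn, the licensing inhibitor geminin, fell with them, with 36.3 and 39.2 CPM at E13.5, against 72.1 and 77.7 CPM at E10.5. The E11.5 library had 389.7 CPM of Mcm6, 308.8 CPM of Mcm3 and 78.0 CPM of Gmnn, above both E10.5 libraries in each case. Cdt1, the loading factor that geminin binds, was at 56.2 and 63.1 CPM at E13.5 and at 51.5 and 61.4 CPM at E10.5 and missed the test. The 16 licensing genes summed to 1585.2 and 1613.8 CPM at E13.5 and to 2195.7 and 2392.0 CPM at E10.5.

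DNA synthesis genes moved the same way. Of 19 clear members 15 fell, with a median of -0.45. Pcna, the sliding clamp of the polymerases, had 143.3 and 165.9 CPM at E13.5, against 285.2 and 318.9 CPM at E10.5 (log2 change -0.97 ± 0.11, adjusted p = 6.28e-09). Ung, which removes uracil from DNA, changed by -0.75 and Rpa3, a subunit of the single-strand binding protein, by -0.71. The call for Rpa3 was lost with 1 lane per library. Pcna lies 43 bases and Rpa3 115 bases from a gene on the other strand. Ccne1, the cyclin of S phase entry, was lower as well, with 50.3 and 50.1 CPM at E13.5 and 68.9 and 78.9 CPM at E10.5. Of the 12 overlapped synthesis genes 5 fell and 3 rose. Of the 3, Fen1, chosen after its values were seen, has 86.54% of its exon length under a gene on the other strand, and its log2 change was 3.72.

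Among 28 clear mitotic genes 11 rose and 1 fell, with a median of 0.14. Foxm1, the transcription factor of mitotic entry, had 233.3 and 255.1 CPM at E13.5, against 109.8 and 105.7 CPM at E10.5 (log2 change 1.18 ± 0.10, adjusted p = 3.51e-11). Mki67, which coats mitotic chromosomes, had 2257.4 and 2240.6 CPM at E13.5, against 1209.5 and 1076.6 CPM at E10.5. Foxm1 lies 56 bases from Rhno1 on the other strand, and a gene on the other strand lies in an intron of Mki67. Ccnb2, a B-type cyclin, rose by 0.61 on the log2 scale, while Ccnb1 was at 285.1 and 237.3 CPM at E13.5 and at 222.2 and 237.9 CPM at E10.5 and missed the test. Top2a, the topoisomerase of chromosome condensation, was at 1900.3 and 1795.7 CPM at E13.5 and at 1959.6 and 1954.1 CPM at E10.5 and also missed it. The CHR letters were in 9 of 13 promoters of risen members and in 14 of 18 promoters of members that missed the test, overlapped genes included. Mad2l1, of the spindle checkpoint, was the member that fell (log2 change -0.25, adjusted p = 0.0424), and that call was lost in 7 of 15 other settings.

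Of 5 clear E2F genes 1 rose (20%), and all 3 clear inhibitors of cyclin-dependent kinases tested rose. E2f2, an activator, had 42.2 and 41.7 CPM at E13.5, against 23.1 and 20.2 CPM at E10.5 (log2 change 0.96 ± 0.12), and the clear members E2f1, E2f3, E2f4 and E2f6 missed the test. The repressors E2f7 and E2f8, both overlapped, rose by 0.75 and 1.30, and E2f5, also overlapped, changed by -0.87. E2f8 had 76.3 and 75.7 CPM at E13.5, against 32.6 and 29.1 CPM at E10.5. Cdkn2c, the INK4 inhibitor p18, had 32 and 28.8 CPM at E13.5, against 6.21 and 5.66 CPM at E10.5 (log2 change 2.36 ± 0.16, adjusted p = 3.35e-14). Cdkn2d rose by 0.54 and Cdkn1b by 0.34, and the call was lost with 1 lane per library for Cdkn2d and without preparation 8 and in a fit of all 25 libraries for Cdkn1b. The overlapped Cdkn1c, the imprinted inhibitor p57, was at 617.9 and 593.0 CPM at E13.5 and at 79.2 and 100.1 CPM at E10.5, with 43.26% of its exon length under a gene on the other strand.

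Replication-dependent histone genes, whose messages are made in S phase, did not move as a list. Of 44 clear members 11 rose and 8 fell, with a median of 0.07. These shares are near or below those of all clear genes, of which 23.3% were higher and 24.2% lower. Hist1h3d had 385.3 and 470.0 CPM at E13.5, against 150.1 and 224.1 CPM at E10.5, and Hist1h1a, a linker histone, had 1011.2 and 1228.6 CPM against 1876.0 and 2018.3 CPM, a call lost in a fit of all 25 libraries. These counts move with single libraries: 7 rose without preparation 8, 13 fell without WT1 and 3 fell without preparation 5. Of the 19 overlapped histone genes 17 rose, with a median of 2.24, the direction in which genes under exons of the other strand moved. Uhrf1, which recruits the maintenance DNA methyltransferase to replicated DNA, was lower, with 292.6 and 308.2 CPM at E13.5 and 481.9 and 508.3 CPM at E10.5, while Dnmt1 itself, at -0.24, missed the test.

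**Figure D3:**
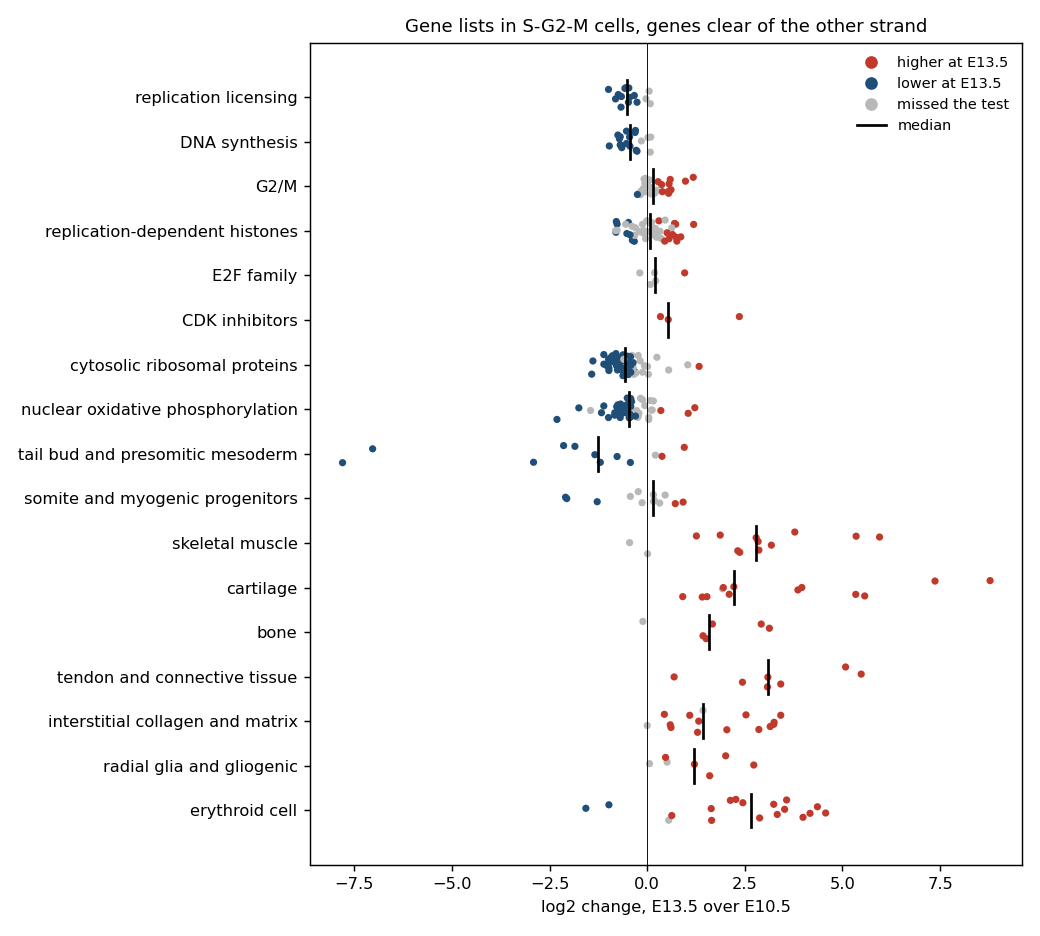
Log2 change of E13.5 over E10.5 for clear members of 17 gene lists in S-G2-M cells, coloured by whether they were higher, lower or missed the test. Black bars are medians; the licensing and synthesis lists lie left of 0, and the cartilage, tendon, muscle and erythroid lists lie mostly right of it.

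Cartilage genes were higher at E13.5. Of 13 clear cartilage genes 12 rose, with a median log2 change of 2.22. Matn1, a cartilage matrix protein, had 59.0 and 49.8 CPM at E13.5, against 0 and 0.213 CPM at E10.5 (log2 change 8.78, and 7.27 to 13.3 over the other settings, adjusted p = 2.35e-06). Acan, the proteoglycan core of cartilage, had 245.9 and 198.6 CPM at E13.5, against 1.08 and 1.55 CPM at E10.5, and ends 3 bases from Hapln3 on the other strand. Col2a1, the main cartilage collagen, was at 2370.3 and 2496.4 CPM at E13.5 and already at 601.5 and 533.2 CPM at E10.5, and Sox9, the master factor of chondrocytes, was at 124.8 and 131.4 CPM and at 77.0 and 59.3 CPM. Col11a2 and Cnmd, of the cartilage matrix, rose by 5.34 and 5.57. Sox9 changed by 0.91 on the log2 scale and the clear matrix genes that passed by 1.53 to 8.78. Hapln1 had 136.6 and 99.9 CPM at E13.5, against 17.6 and 44.1 CPM at E10.5, and missed the test.

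Bone, tendon and connective tissue genes moved with cartilage. Of 6 clear bone genes 5 rose, with a median of 1.59. Sp7, the osteoblast factor osterix, had 7.33 and 7.28 CPM at E13.5, against 0.939 and 0.979 CPM at E10.5 (log2 change 2.92 ± 0.29), and Alpl, alkaline phosphatase, missed the test at 15.7 and 15.8 CPM against 18.1 and 15.9 CPM. All 7 clear genes of the tendon and connective tissue list rose, with a median of 3.09. They include Egr1, which is also counted below among the genes that dissociation is known to induce. Kera, keratocan, was at 9.27 and 4.88 CPM at E13.5 and at 0.166 and 0.149 CPM at E10.5, and Tnmd, tenomodulin, at 2.78 and 2.33 CPM and at 0.0552 and 0.0851 CPM. The matrix list had 13 of 15 clear members higher, with a median of 1.43. Col6a1 and Col6a3, chains of collagen VI, rose by 3.24 and 3.25, and Dcn, the proteoglycan decorin, had 49.1 and 35.6 CPM at E13.5, against 2.76 and 5.06 CPM at E10.5.

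Skeletal muscle genes were higher in the S-G2-M gate as well. Of 13 clear skeletal muscle genes 11 rose, with a median of 2.79. Myod1, the myogenic determination factor, had 31.0 and 27.5 CPM at E13.5, against 0.884 and 0.574 CPM at E10.5 (log2 change 5.35 ± 0.22, adjusted p = 1.3e-19), and Myog, which acts later in the lineage, had 35.3 and 29.0 CPM against 2.93 and 4.13 CPM. Mymk, needed for myoblast fusion, had 1.78 and 1.7 CPM at E13.5, against 0 and 0.0426 CPM at E10.5. Upstream of them, Myf5 rose by 0.92, a call lost in a fit of all 25 libraries, and Pax3, of the somite, had 29.8 and 32.9 CPM at E13.5 against 77.6 and 74.1 CPM at E10.5.

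Genes of the tail bud and the early somite were mostly lower at E13.5. Of 12 clear tail bud genes 9 fell and 2 rose, with a median of -1.27. Msgn1, of the presomitic mesoderm, had no count in either E13.5 library and 0.828 and 1.06 CPM at E10.5, which makes it at least 5.12-fold lower against a floor of 3 counts per library. Cdx4, a caudal factor, also had no count at E13.5 and 0.414 and 0.681 CPM at E10.5, at least 2.97-fold lower. T, the brachyury factor of the tail bud, was at 0.262 and 0.424 CPM at E13.5 and at 1.88 and 3.15 CPM at E10.5. The 2 members that rose, Dll3 and Lfng, belong to the Notch pathway and are used in other tissues as well, and the call for Lfng (log2 change 0.38) was lost without preparation 5, without preparation 8 and in a fit of all 25 libraries. Meox1 and Tcf15, of the somite, had log2 changes of -2.09 and -2.06, and Meox1 was at 12.9 and 12.1 CPM at E13.5 and at 41.4 and 65.3 CPM at E10.5.

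Hox genes, which pattern the body axis in the order of their paralog numbers, differed by position in the cluster. All 4 genes of paralog group 13 rose, and they are clear. Hoxd13, of the distal limb and the urogenital tract, had 51.2 and 37.4 CPM at E13.5, against 7.45 and 7.17 CPM at E10.5 (log2 change 2.60 ± 0.15, adjusted p = 5.85e-15). Hoxa13 changed by 2.66, Hoxc13 by 3.24 and Hoxb13 by 1.88. In cluster B 5 of 6 clear genes fell, with a median of -1.67, and Hoxb9 had 7.86 and 10.8 CPM at E13.5, against 46.9 and 48.4 CPM at E10.5. Hoxb1 was at 0.0524 and 0.354 CPM at E13.5 and at 1.52 and 2.34 CPM at E10.5. In cluster C 3 genes rose (Hoxc11, Hoxc12 and Hoxc13) and 3 fell (Hoxc4, Hoxc6 and Hoxc9), and 1 of the falls remained without preparation 5 and 1 without preparation 8. Hoxa2 and Hoxa9 in cluster A and Hoxd9 in cluster D fell, with log2 changes of -1.17, -0.73 and -0.89.

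**Figure D4:**
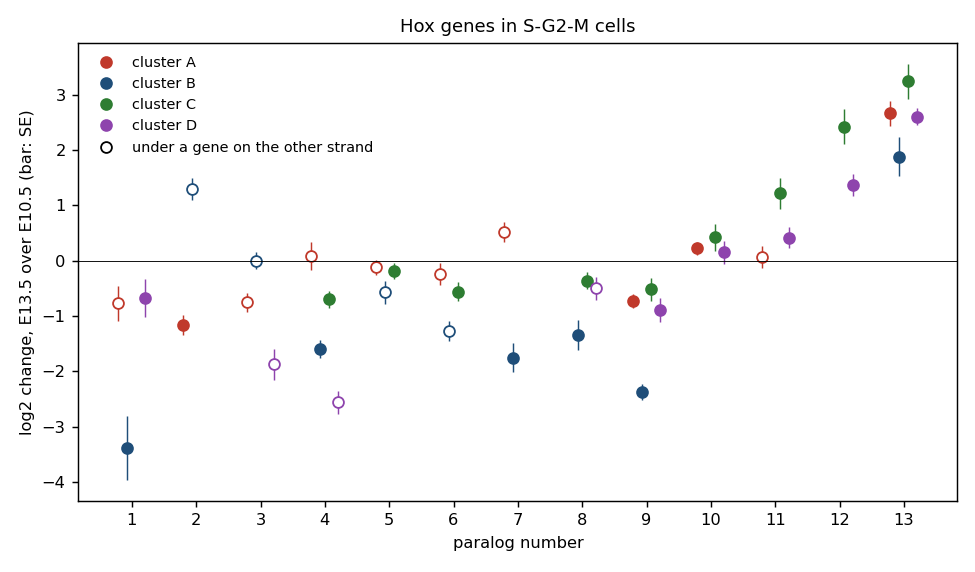
Log2 change of E13.5 over E10.5 (bar: SE) of the Hox genes tested in S-G2-M cells against paralog number, by cluster. Open circles are overlapped genes, and the 4 genes of number 13 lie between 1.88 and 3.24.

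Most genes of radial glia and of gliogenesis were higher at E13.5. Of 7 clear radial glia genes 5 rose, with a median of 1.21. Nfib, a factor of the gliogenic switch, had 583.4 and 524.8 CPM at E13.5, against 98.3 and 68.5 CPM at E10.5 (log2 change 2.73 ± 0.15, adjusted p = 1.69e-09). Its relatives Nfia and Nfix, both overlapped, rose by 2.72 and 5.86, and Nfix was at 113.4 and 118.7 CPM at E13.5 and at 2.18 and 1.83 CPM at E10.5 with 3.59% of its exon length under a gene on the other strand. Bcan, the brain proteoglycan brevican, rose by 2.01 and Ptprz1, a receptor phosphatase, by 1.60. Fabp7, of radial glia, was at 79.4 and 84.9 CPM at E13.5 and at 70.2 and 45.4 CPM at E10.5 and missed the test, and it passed in 7 of 15 other settings. Among factors of neural stem cells, Sox1 had 60.8 and 74.0 CPM at E13.5, against 38.4 and 36.1 CPM at E10.5 (log2 change 0.85 ± 0.12, adjusted p = 2.66e-07), while Sox2 and Pax6, which is overlapped, missed the test. Sox2 was at 96.6 and 110.4 CPM at E13.5 and at 113.8 and 117.2 CPM at E10.5, and Pax6 at 60.5 and 65.0 CPM and at 61.4 and 57.3 CPM.

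Neurogenic genes were mixed. Of 11 clear neural progenitor genes 5 rose and 1 fell, but without preparation 8 the number that rose was 3. Neurog2, a proneural factor, had 35.6 and 41.9 CPM at E13.5, against 11.2 and 11.4 CPM at E10.5. Nes, the intermediate filament nestin, had 359.6 and 432.5 CPM at E13.5, against 600.7 and 573.8 CPM at E10.5. Of 19 clear neuronal genes 9 rose and 3 fell. Pou4f1, of sensory neurons, had 1.94 and 2.05 CPM at E13.5, against 13 and 9.53 CPM at E10.5, and Robo3, a receptor of commissural axons, had 7.86 and 15 CPM against 1.79 and 1.94 CPM.

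Keratins of the basal layer of the surface epithelium were higher at E13.5. Of 10 clear members 7 rose and 1 fell, with a median of 1.29. Krt15 had 18.7 and 22.3 CPM at E13.5, against 0.166 and 0.426 CPM at E10.5 (log2 change 6.03 ± 0.29, adjusted p = 5.56e-17), and Krt14 had 43.3 and 46.9 CPM against 1.46 and 1.98 CPM. Krt18, a keratin of simple epithelia, changed by -0.95 (adjusted p = 0.0464), and that call was lost in a fit of all 25 libraries and with scaling on clear genes.

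Most genes of the red cell lineage were higher at E13.5. Of 18 clear erythroid genes 15 rose and 2 fell, with a median of 2.66. Rhag, of the Rh complex of red cells, had 2.1 and 0.848 CPM at E13.5, against 0.0276 and 0.0851 CPM at E10.5 (log2 change 4.57 ± 0.63), and Hemgn, an erythroid nuclear protein, had 2.72 and 2.55 CPM against 0.0828 and 0.191 CPM. In unsorted cells at E13.5 Rhag was at 76.0 and 74.1 CPM and Hemgn at 139.2 and 151.5 CPM. In G0 cells at E13.5 they were at 1.79 and 1.67 CPM and at 3.27 and 2.2 CPM. The 2 members that fell were Nfe2 (log2 change -1.57) and Tfrc, the transferrin receptor that most dividing cells use, with 75.8 and 73.6 CPM at E13.5 and 138.8 and 155.3 CPM at E10.5. Summed over the 18 genes, the level was 205.8 and 172.7 CPM at E13.5 and 172.6 and 200.5 CPM at E10.5. The sum overlapped between days although most members rose, because it was dominated by Tfrc. At E10.5 Tfrc alone held 138.8 and 155.3 of the 172.6 and 200.5 CPM, and at E13.5 75.8 and 73.6 of the 205.8 and 172.7 CPM.

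Of 3 embryonic globin genes tested 1 fell, and of 3 adult ones 1 rose, with the other two of each kind missing the test. Embryonic globins are known from primitive red cells and adult globins from definitive ones. Hbb-bh1, an embryonic beta globin, had 2.25 and 2.9 CPM at E13.5, against 18.9 and 24.2 CPM at E10.5 (log2 change -3.08 ± 0.21, adjusted p = 7.83e-14). Hbb-bt, an adult beta globin, had 22.4 and 16 CPM at E13.5, against 0.0828 and 0.894 CPM at E10.5 (log2 change 5.19 ± 0.93, adjusted p = 0.037). The near-identical Hbb-bs had 173.6 and 109.8 CPM at E13.5, against 0.663 and 5.98 CPM at E10.5, and missed the test at an adjusted p of 0.0718. Hba-a1 had 177.2 and 127.0 CPM at E13.5, against 4.39 and 14 CPM at E10.5, and missed it at 0.0594. The days did not overlap for any of the 3, as for 9822 of all 13496 clear genes tested. Their E10.5 libraries differed among themselves, and reads of such copies may have been split in counting. In unsorted cells Hbb-bs was at 8168.9 and 6129.5 CPM at E13.5, and Hbb-bh1 at 8495.1 and 4658.7 CPM at E10.5. Hbb-y and Hba-x, also embryonic, overlapped between days and missed the test.

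Markers of other blood and organ cells were at low levels. Of 8 clear haematopoietic genes 7 rose, among them Ptprc, the pan-leukocyte CD45, with 3.98 and 5.09 CPM at E13.5 and 0.635 and 0.66 CPM at E10.5. Of 11 clear macrophage genes 6 rose, and 3 without preparation 8. Of 11 clear endothelial genes 3 rose, and 11 without WT2, whose endothelial sum of 196.6 CPM lay beside 67.9 CPM in WT1 and 234.5 and 185.8 CPM in the E13.5 libraries. Of 10 clear hepatocyte genes 4 rose and 1 fell, and Alb, serum albumin, had 6.08 and 8.27 CPM at E13.5, against 1.13 and 1.23 CPM at E10.5. Afp, alpha-fetoprotein, which is overlapped, was at 11.2 and 13.9 CPM at E13.5 and at 17.6 and 14.4 CPM at E10.5 and missed the test.

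Signalling genes moved in both directions. Of 41 clear Wnt pathway genes 18 rose and 11 fell, with a median of 0.24. Wnt10a and Wnt10b, ligands of skin appendages and teeth, rose by 2.82 and 2.93. Wnt1, of the dorsal neural tube, had 0.524 and 0.212 CPM at E13.5, against 3.87 and 3.49 CPM at E10.5, and Rspo4 and Wnt16 changed by -4.12 and -2.90. Of 9 clear Hedgehog genes 6 rose. Ihh, the ligand of growth plate cartilage, had 5.92 and 4.74 CPM at E13.5, against 0.304 and 0.191 CPM at E10.5 (log2 change 4.44 ± 0.39), while Smo, the signal transducer of the pathway, missed the test at -0.05. Of 21 clear FGF and BMP ligands 10 rose and 4 fell. Bmp2 had 23.5 and 19.9 CPM at E13.5, against 2.79 and 2.87 CPM at E10.5, and Fgf8, of the tail bud and limb ridge, had 1.26 and 2.4 CPM against 5.33 and 7.55 CPM.

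Imprinted growth genes did not move as a block. Of 10 clear members 3 rose and 2 fell, with a median of -0.06. Dlk1 had 192.3 and 163.0 CPM at E13.5, against 91.7 and 116.3 CPM at E10.5, and Peg3 missed the test at 1607.7 and 1425.2 CPM and 1591.7 and 1724.4 CPM. The overlapped Igf2, the fetal growth factor, was at 967.7 and 1173.6 CPM at E13.5 and at 360.1 and 456.2 CPM at E10.5, and H19, its neighbour on the same imprinted locus, at 4066.4 and 3824.9 CPM and at 1733.9 and 2482.9 CPM, and the call for H19 was lost in a fit of all 25 libraries. Igfbp3 and Igfbp5, which bind insulin-like growth factors, rose by 2.01 and 1.47.

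Genes of ribosomes and mitochondria moved mostly as lists. Of 59 clear ribosomal protein genes 43 fell and 1 rose, with a median of -0.56, and of 55 clear nuclear genes of oxidative phosphorylation 36 fell and 3 rose, with a median of -0.46. Rpl7a had 87.6 and 98.3 CPM at E13.5, against 207.1 and 290.5 CPM at E10.5, and Atp5k had 19 and 21.1 CPM against 64.9 and 69.9 CPM. Rpl34 rose, with 54.4 and 56.2 CPM at E13.5 and 22.9 and 21.2 CPM at E10.5. Of 8 clear mitochondrially encoded genes 4 rose and 2 fell, with mt-Cytb at 1034.1 and 980.5 CPM at E13.5 and 190.0 and 224.1 CPM at E10.5 and mt-Co3 at 2.62 and 2.69 CPM and 6.85 and 5.96 CPM. Genes that dissociation of tissue is known to induce also moved: 9 of 16 clear members rose and 2 fell, with a median of 0.87. Egr1 had 233.8 and 340.2 CPM at E13.5, against 33.4 and 34.4 CPM at E10.5, and Nr4a1 had 59.7 and 85.0 CPM against 5.05 and 6.47 CPM. The dissociation list summed to 1782.5 and 2079.5 CPM at E13.5 and to 1403.7 and 1849.4 CPM at E10.5. The 2 members that fell, Hsp90aa1 and Hspa8, took a large part of these sums. Hsp90aa1 was at 356.5 and 346.9 CPM at E13.5 and at 606.7 and 710.3 CPM at E10.5. Hspa8 was at 304.8 and 288.2 CPM at E13.5 and at 414.6 and 619.5 CPM at E10.5. The part that handling of the cells or the make of the library had in the other lists was not tested.

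Changes were ranked among clear genes that passed, averaged 3 or more in log2 CPM and did not overlap between days. Predicted genes, small RNA genes and pseudogenes were left out. The lowest changes were those of Mroh2a, Arg1, Slc16a4, Igdcc3, Prtg, Lin28b, Fignl2, Hbb-bh1, Zbtb16 and Crabp2, with log2 changes of -7.43 to -2.59. Mroh2a had 0.0524 and 0.212 CPM at E13.5, against 22.9 and 20.2 CPM at E10.5, and lies 182 bases from Hjurp on the other strand. Arg1 lies 135 bases from such a gene, and a gene on the other strand lies in an intron of Prtg. Slc16a4, a monocarboxylate carrier family member, had 0.891 and 0.636 CPM at E13.5, against 28.0 and 20.7 CPM at E10.5, and is 13306 bases from the nearest gene on the other strand. Igdcc3, an immunoglobulin-family membrane protein, had 16.9 and 14.4 CPM against 189.1 and 213.5 CPM, and Crabp2, which carries retinoic acid, had 42.2 and 42.1 CPM against 228.3 and 280.0 CPM. The highest were those of Matn1, Acan, Zcchc5, Krt15, Susd5, Cnmd, Agtr2, Myod1, Col11a2 and Hbb-bt, with log2 changes of 8.78 to 5.19. Agtr2, a receptor of angiotensin II, had 50.5 and 34.4 CPM at E13.5, against 0.773 and 1.04 CPM at E10.5. Of 7827 clear genes over 5000 bases from any gene on the other strand, 1837 were higher (23.5%) and 1716 lower (21.9%), percentages close to those of all clear genes.

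The overlapped genes of that mean level with the largest changes were listed at 0 on 1 of the days. Gm15459 had 781.8 and 822.6 CPM at E13.5 and no count at E10.5, Hist2h3b 275.3 and 341.3 CPM and no count, and Gm8203 209.8 and 234.8 CPM and no count, which makes them at least 10939.3, 4204.0 and 3031.8-fold higher against 3 counts per library. Gm17477, C79798 and Gm26836 had no count at E13.5 and between 11.1 and 19.9 CPM at E10.5, at least 91.2, 87.0 and 79.6-fold lower. The first set lies to at least 95.83% under exons on the other strand, and the second lies wholly within genes on the other strand with at most 4.18% under their exons. All 6 are uncertain, since the change in strand handling and the change in day cannot be told apart for them.

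Few genes had a day change in S-G2-M that passed a test against the other gates, which share the preparations and the strand handling of each day. The change in S-G2-M was set against the mean change of G0, G1 and G1-S in the 16 sorted libraries of both days. Of 15137 clear genes tested, 344 had a more positive change (2.27%) and 193 a more negative one (1.28%). These counts hang on single preparations, since without preparation 5 they were 30 and 6, without preparation 8 26 and 5, without WT1 731 and 661, and without WT2 643 and 547. In edgeR 0 of the 16 licensing, 0 of the 19 synthesis and 0 of the 28 mitotic genes passed this test, with 1, 1 and 7 at an unadjusted p under 0.05, and in DESeq2 1, 0 and 4 passed. With preparation as a replicate block, since the gates of a day share preparations, 1, 0 and 5 passed in edgeR, and over all clear genes 715 had a more positive and 393 a more negative change.

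Of 19 clear neuronal genes 7 had a more positive and 2 a more negative change in S-G2-M. Isl2, of motor and sensory neurons, had day changes of 0.68 in S-G2-M and -2.63 in G0. Its difference of 2.60 from the mean of the other gates was lost without preparation 8 and against G1-S alone. Slc17a6, a glutamate transporter of neurons, had 10.9 and 10.1 CPM in S-G2-M at E13.5, against 0.718 and 0.596 CPM at E10.5, and 141.0 and 141.9 CPM in G0 at E13.5, against 144.9 and 94.4 CPM at E10.5.

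Muscle and cartilage genes were also among those with a more positive change. Myog had day changes of 3.18 in S-G2-M, -0.08 in G0, 1.28 in G1 and 0.16 in G1-S, a difference of 2.73 ± 0.50 (adjusted p = 0.0129), and 6 of 13 clear muscle genes passed that way. Cnmd changed by 5.57 in S-G2-M, -1.15 in G0, 4.88 in G1 and 4.62 in G1-S, and its difference of 2.79 was lost against G1-S alone (0.95, adjusted p = 0.404). Meox1 changed by -2.09 in S-G2-M and by 1.87 in G0, where it was at 12.6 and 11.6 CPM at E13.5 and at 2.07 and 4.93 CPM at E10.5. Gbx1, a homeobox factor of the spinal cord, changed by -4.96 in S-G2-M and by 2.09 in G0. Slc16a4 had negative day changes in all 4 gates, of -4.95 in S-G2-M and -1.78 in G0. Mpeg1, of macrophages, changed by -2.25 in S-G2-M and by 1.31 in G1-S. Of the 11 clear genes of the macrophage list, 6 rose and 0 fell in S-G2-M. Fga, a fibrinogen chain of hepatocytes, changed by 0.59 in S-G2-M and by 7.79 in G1-S. In G1-S Fga had 75 and 66.2 CPM at E13.5, against 0.491 and 0.214 CPM at E10.5. The calls for Fga, Gbx1, Meox1, Mpeg1, Myog and Slc17a6 were each lost without preparation 5 and without preparation 8, with the direction kept. Against G1-S alone, the calls for Meox1, Slc16a4 and Slc17a6 were lost, also with the direction kept.

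**Figure D5:**
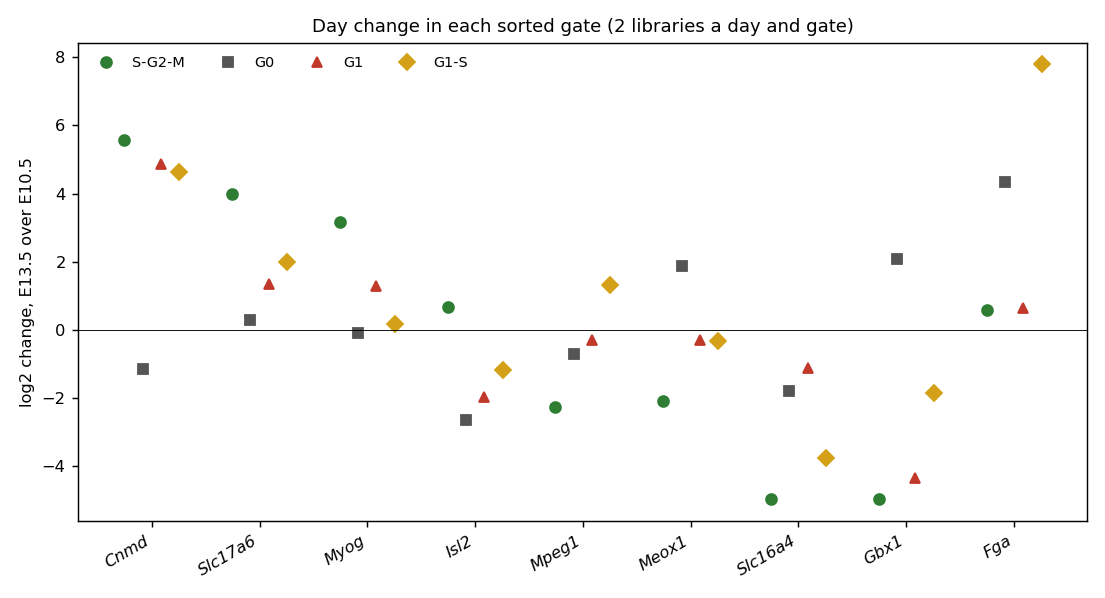
Log2 change of E13.5 over E10.5 in each sorted gate, S-G2-M first, for 4 named genes with a positive and 5 with a negative difference. Green circles are S-G2-M, and they lie above the G0 squares for Cnmd, Slc17a6, Myog and Isl2 and below them for the other 5.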

How the data were processed

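Libraries came from minced, flow-sorted embryos, with total RNA depleted of ribosomal RNA. The authors deposited raw read counts per gene, 1 column per lane; reads were aligned with STAR 2.5.3 to mm10 and counted with HTSeq 0.8.0, per the submitters' processing notes. For the strand setting and the annotation no source used here has an entry. The 18 S-G2-M lane columns of E13.5 and E10.5 were summed into 4 libraries (14.69 to 47.3 M counts, M for 1e6; lanes of a library differed little beyond counting noise, with a dispersion index of 1.09 to 1.227, and preparations of a day by 19.23 and 20.7). Of 52550 genes, 52403 matched GENCODE M21 (GRCm38) by ID and were classed by overlap with genes on the other strand.

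Day was tested with edgeR 4.0.16 (R 4.3.3) by quasi-likelihood, with TMM factors, filterByExpr (minimum count 10), Benjamini-Hochberg adjustment over 21724 genes and a threshold of 0.05. The 16 sorted libraries of both days gave the test of the day change in S-G2-M minus the mean of G0, G1 and G1-S. SE is the absolute log2 change over the square root of F. The E11.5 library entered no test of day. DESeq2 1.42.0, other scalings, filters, thinned counts, lanes and each preparation left out were alternatives. Genes were named by a rule on size of change (10 each way, mean log2 CPM of at least 3), by list (up to 3 each way) and by fixed names. The members and all gene lists were chosen with earlier results of these data known. Promoters and microRNAs are from RefSeq (GRCm38.p6), and 3′ UTRs from GENCODE M21. Some genes that the rule named are not reported here.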

Additional observations from a re-analysis of the deposited data

Results flagged for a closer look

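The day change (E13.5 over E10.5) differed between S-G2-M and the mean of the G0, G1 and G1-S gates for 9 named clear genes by a test of the difference itself (edgeR quasi-likelihood, adjusted p of 0.0129 or less). The log2 differences were 2.79 for Cnmd, 2.78 for Slc17a6, 2.73 for Myog and 2.60 for Isl2. They were -3.67 for Fga, -3.59 for Gbx1, -2.74 for Slc16a4, -2.51 for Meox1 and -2.35 for Mpeg1. Cnmd and Slc16a4 missed only when G1-S alone was set against S-G2-M, with differences of 0.95 and -1.20. The remaining 7 each missed without 1 or both of preparations 5 and 8. Of these, Meox1, Slc17a6 and Isl2 also missed against G1-S alone, with differences of -1.77, 2.0 and 1.85. The sign of the difference was the same in all alternatives for all 9 genes.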

How the results depend on the processing

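Clear genes higher and lower at E13.5 numbered 2309 to 3060 and 2354 to 3593 when each preparation was left out in turn. With a 2-fold minimum, clear genes were 923 higher and 511 lower (64.4% higher, against 49.0% without it), and overlapped genes 693 higher and 1835 lower (27.4% against 43.4%). Overlapped genes lower were 1663 with 1 lane per library, which counts fewer reads, and 1598 with overlap counted only between exons. That last setting moves genes from the overlapped to the clear class, where 3393 were then higher and 4665 lower. Clear genes over 5000 bases from any other-strand gene, a choice made after seeing the data, were 1837 higher and 1716 lower, from fewer genes. The difference between gates gave 742 higher and 374 lower with no filter on low counts, 316 lower with DESeq2, and 68 higher and 92 lower against G1-S alone; the cause was not tested. Leaving out each preparation gave 26 to 731 higher and 5 to 661 lower. With preparation as a replicate block there were 715 higher and 393 lower; gates of 1 preparation deviated together with correlations of -0.154 to 0.498 among E13.5 gates and 0.126 to 0.662 among E10.5 gates, over 10909 genes. Of 212 named genes that passed, 49 missed in at least 1 setting and 0 reversed. Genes that missed the test and changed sign were Hbb-y (-0.27 to 0.42 by preparation left out, -0.01 in a fit of all libraries, -0.34 with 1 lane), Cdt1 (-0.07 to 0.20), E2f4 (-0.10 to 0.26), Hba-x (-0.97 to 0.15) and Ddx3y (-6.34 to 0.04). Genes of chromosomes X and Y left out, also chosen after seeing the data, gave 2999 clear genes higher and 3145 lower.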

Other observations

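Several further gene groups were tested in S-G2-M cells at E13.5 against E10.5. Of 13 clear neural crest and Schwann cell genes 8 rose and 1 fell, with 5 higher without preparation 8. Dct, of melanoblasts, had 5.66 and 4.17 CPM at E13.5, against 2.73 and 1.62 CPM at E10.5.

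Of 10 clear cardiac genes 5 rose and 1 fell, and the number that fell was 2 without WT1, 0 without WT2 and 0 without preparation 5. Nkx2-5, a cardiac factor, had 1.57 and 2.33 CPM at E13.5, against 0.414 and 0.426 CPM at E10.5, and Tnnt2, cardiac troponin T, had 4.09 and 4.88 CPM against 0.745 and 1.51 CPM, a call lost in a fit of all 25 libraries (adjusted p = 0.0673 in edgeR). Factors of limb and face mesenchyme split, with 6 of 14 clear members higher and 5 lower. Dlx2 had 32.7 and 37.7 CPM at E13.5, against 6.88 and 7.49 CPM at E10.5. Of 14 clear p53 targets 3 rose and 4 fell, near the 23.3% higher and 24.2% lower among all clear genes. Bbc3, the pro-apoptotic PUMA, had 1.41 and 2.83 CPM at E13.5, against 5.19 and 6.36 CPM at E10.5. The 3 that rose came to 1 without preparation 5 and to 1 without preparation 8, and the 4 that fell to 2 without preparation 5.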
